A study of Mus musculus with 8 samples.

Results

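The oligoadenylate synthetase genes and the gene for PKR were followed in p53 knockout mouse bone marrow stem cells with and without a cFos retrovirus. The members were 8 genes chosen by symbol: Oas1a, Oas1b, Oas1g, Oas2, Oas3, Oasl1, Oasl2 and Eif2ak2, out of 23503 genes in the tables. All 8 were found, under 9 RefSeq transcript entries, 1 for each gene and a second one for Oas1b. Polyadenylated RNA was sequenced from 8 cultures, 1 library each. In 4 of them single clones of p53 knockout mesenchymal stem cells, numbered 2, 4, 8 and 12, carried a retrovirus that expresses cFos, the AP-1 subunit encoded by Fos. In the other 4 the same clones carried a retrovirus that expresses luciferase (Luc), an enzyme used as a control. All 8 cultures lack p53, carry a retrovirus and were below passage 20, so no untransduced cells and no cells with p53 were compared. Each clone gave 1 culture per virus, and a name such as Luc 8 stands for the luciferase library of clone 8. Spread within a virus is therefore spread between clonal lines, and p-values measure that spread alone.

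Oligoadenylate synthetases are cytosolic sensors of double-stranded RNA. When bound to it they join ATP into short oligoadenylates, second messengers of the antiviral response. PKR, the product of Eif2ak2, is a kinase that binds the same kind of RNA and phosphorylates the translation factor eIF2α, which slows protein synthesis. These genes are classic targets of type I interferon, which acts through transcription factors such as STAT2 and IRF9 at promoter sequences called interferon-stimulated response elements.

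The letters of such an element were looked for in the promoters, since the members moved together. RefSeq promoter windows (build GRCm38.p6, 250 bases before to 50 after the start) were on hand for 6 of the 8 members, all but Oas1b and Oas2. The core, GAAA followed by any 2 bases and GAAA again, was searched on both strands, and 3.44% of all 32851 promoter windows hold it. It stood in 4 of the 6 windows, those of Oas1a, Oas1g, Oas3 and Eif2ak2, and its letters were not in the windows of Oasl1 and Oasl2. In Oas1a and Oas1g 2 overlapping matches began 20 and 14 bases and 18 and 12 bases before the start, in Oas3 1 match began 75 bases before it, and in Eif2ak2 1 match began 18 bases after it. The AP-1 site TGANTCA, which 7.81% of all windows hold, was found only in Oas3 among these 6, beginning 109 and 54 bases before the start. A stretch of 100 bases around each core is shown 5′ to 3′ on the gene's strand, with matches to both motifs in capitals, because it lets the near-copies Oas1a and Oas1g be compared with the other 2.
Oas1a, chr5:120907500-120907599, minus strand: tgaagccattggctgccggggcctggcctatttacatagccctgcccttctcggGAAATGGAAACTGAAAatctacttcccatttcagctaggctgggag
Oas1g, chr5:120887586-120887685, minus strand: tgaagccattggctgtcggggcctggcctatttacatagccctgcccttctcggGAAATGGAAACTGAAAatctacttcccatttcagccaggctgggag
Oas3, chr5:120777695-120777794, minus strand: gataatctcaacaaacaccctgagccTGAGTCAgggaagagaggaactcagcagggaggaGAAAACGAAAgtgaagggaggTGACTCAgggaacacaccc
Eif2ak2, chr17:78882543-78882642, minus strand: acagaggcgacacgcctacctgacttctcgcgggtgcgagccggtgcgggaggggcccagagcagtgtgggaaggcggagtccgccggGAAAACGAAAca
The stretches of Oas1a and Oas1g were identical at 98 of 100 positions, and their whole windows at 85.3% of aligned columns. These matches describe letters, and no binding was measured.

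The virus was checked by Fos, which stood at 589, 675, 1019 and 505 FPKM (sequenced fragments scaled to transcript length and to the mapped fragments of a library, as deposited) in cFos 2, 4, 8 and 12, and at 76.2, 41.1, 302 and 43.5 FPKM in Luc 2, 4, 8 and 12. The lowest cFos library lay above the highest Luc library, Luc 8 (limma log2 fold change 3.06, SE 0.58, adjusted p = 0.0184, and above the threshold of 0.05 without cFos 2, cFos 4, cFos 8 or Luc 2, up to 0.0580). Estimated mean depth per base times transcript length, summed over the listed transcripts, came to 6.93 to 9.14 gigabases per library. Stromal genes were present, with Col1a1, a chain of type I collagen, at 1180 to 1865 FPKM in cFos and 831 to 2401 in Luc. Of 12 stromal genes listed, 10 were tested, of which 1 was lower, 1 was higher and 8 missed the threshold. Over all tested genes 2.62% were called lower and 2.92% higher. Cxcl12, a stromal chemokine, stood at 359 ± 202 FPKM in cFos and 3364 ± 2680 in Luc (SD, n = 4 each), lower in all 4 clones (limma log2 fold change -3.07, adjusted p = 0.0154, with the call lost without cFos 2 and with no filter). Pdgfrb, a growth factor receptor, stood at 147 ± 28.6 FPKM in cFos and 86.8 ± 16.2 in Luc (SD, n = 4 each), higher in all 4 clones (0.75, adjusted p = 0.0442, with the call lost without any 1 of cFos 2, 4 and 8 and Luc 2, 8 and 12, with no filter and with no trend). The part of these changes in the results on the members was not tested. Of 12 blood cell genes, 10 were matched by name. Their summed level was 1.65 to 2.57 FPKM in cFos and 1.20 to 2.89 in Luc, most of it Cd14, while Tyrobp was at 0 in all 8 libraries. The 6 endothelial genes summed to 0.0811 to 0.150 FPKM in cFos and 0.155 to 0.432 in Luc, with Cdh5 at 0 in all 8.

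All 8 members were lower in the cFos culture of each of the 4 clones. For Oas3 in clone 8 this was 0.00744 FPKM in cFos against 0.0184 in Luc, too low for a fall to be detectable. Lower in all 4 clones were also 20.9% of the 11162 genes tested. In 7 of the 8 members the 4 cFos libraries lay below the 4 Luc libraries without overlap, which was so for 7.8% of the tested genes, and Oas3 was the exception. The mean log2 difference had a median of -2.46 over the 8 members and of -0.06 over all tested genes. In bulk RNA, fewer cells with a transcript and less of it per cell cannot be told apart.

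**Figure D1:**
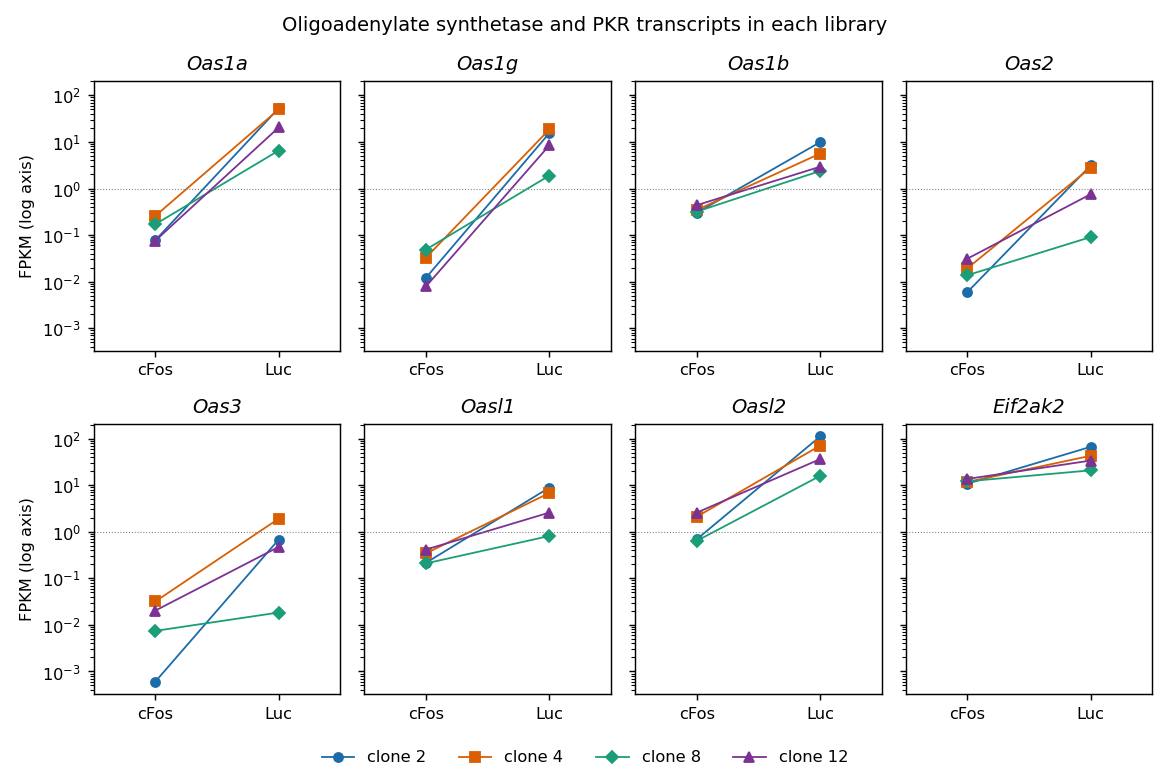
FPKM of each member on a log axis, cFos at the left and Luc at the right of each panel, with 1 point per library and a line joining the cultures of a clone. The dotted line marks 1 FPKM. Every line slopes down towards cFos, and Luc 8 (green diamonds) is the lowest Luc library in all 8 panels.

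Which members differ between the viruses was tested with limma after taking log2(FPKM + 0.5). A gene entered when 4 or more libraries reached 1 FPKM, and p-values were adjusted by Benjamini-Hochberg over all 11162 such genes. Of the 8 members, 5 passed this filter, of which 5 fell and 0 rose, beside 2.62% of all tested genes called lower and 2.92% called higher. This count is no support in itself, because 3 of the 5, Oas1a, Oas1b and Oas1g, passed the filter through the Luc libraries alone and so had to differ. A filter on the mean, of at least 1 FPKM over the 8 libraries, let in 6 members. Of these 6 fell, beside 2.46% of 11315 genes. Oas1a, Oas1b, Oas1g and Oasl1 were below 1 FPKM in every cFos library, so they reached that mean through Luc alone. This count too is no support in itself, and that filter was chosen after the data were seen. With no filter 4 of the 8 fell, beside 0.353% of 23500 genes. Of these, Oas1b and Oas1g passed only narrowly (limma adjusted p of 0.0498 and 0.0479). With the clone as a block 5 of 5 fell, beside 4.28%. The genes of that fit were those of the main filter, so this count is no support in itself either.

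Oas1a encodes an active synthetase (chromosome 5, 121346266 to 121357534, mm9). It stood at 0.0775, 0.258, 0.171 and 0.0758 FPKM in cFos 2, 4, 8 and 12, and at 52.9, 50.01, 6.52 and 20.5 FPKM in Luc 2, 4, 8 and 12. The Luc libraries spread 8.11-fold from Luc 8 to Luc 2, and each lay far above all cFos libraries. The means were 0.146 ± 0.0872 FPKM in cFos and 32.5 ± 22.7 in Luc (SD, n = 4 each). The difference in log2(FPKM + 0.5) was -5.29 (SE 0.58, limma adjusted p = 0.00220). This scale understates the fall of genes near 0. Within the clones cFos held 0.147%, 0.516%, 2.62% and 0.370% of the Luc level in clones 2, 4, 8 and 12.

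Oas1g, a synthetase gene that lies next to it (chromosome 5, 121326151 to 121337607), stood at 0.0122, 0.0328, 0.0490 and 0.00794 FPKM in cFos 2, 4, 8 and 12. In Luc it was at 15.5, 18.6, 1.90 and 8.48 FPKM in clones 2, 4, 8 and 12. It was close to absent in every cFos library, where the lower limit of the authors' own confidence interval was 0 in all 4. It fell by 4.10 on the scale of log2(FPKM + 0.5) (SE 0.57, limma adjusted p = 0.00480). The size depends on the pseudocount, with -6.08 at 0.1 and -3.24 at 1. By the deposited values cFos held 0.0784%, 0.176%, 2.58% and 0.0936% of the Luc level in clones 2, 4, 8 and 12, a smaller share than for Oas1a in each clone.

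Oas1a and Oas1g share reads, so their split is uncertain. Their transcripts were identical at 90.6% of aligned columns, from GENCODE M21 sequences. Of the 1836 stretches of 50 bases in Oas1a, 1044 (56.9%) also occur unchanged in Oas1g, and 40.1% of the stretches of 100 bases do. Against Oas1b the share was 0.708% at 50 bases, so among the members it is the split between Oas1a and Oas1g that is in doubt. Oas1 genes outside the members, such as Oas1c, were not compared. Summed as 1 gene, they stood at 0.0897, 0.291, 0.220 and 0.0838 FPKM in cFos 2, 4, 8 and 12 and at 68.4, 68.6, 8.42 and 29.0 FPKM in Luc 2, 4, 8 and 12. The sum fell by 5.65 on the log2 scale (limma adjusted p = 0.00174). It too passed the filter through Luc alone, so this call is no support in itself. Every Luc sum lay above every cFos sum, so the lower level in cFos did not rest on the split.

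The share of Oas1a in the sum of both was 86.4%, 88.7%, 77.7% and 90.5% in cFos 2, 4, 8 and 12, and 77.3%, 72.9%, 77.5% and 70.7% in Luc 2, 4, 8 and 12. The means were 85.8 ± 5.67% in cFos and 74.6 ± 3.35% in Luc (SD, n = 4), a difference of 11.3 percentage points. The groups came within 1 point of each other, at cFos 8 and Luc 8, and did not overlap. By two-sided exact permutation p was 0.0286 over the 70 arrangements of the libraries and 0.125 over the 16 exchanges within clones, the smallest values possible with 4 against 4 and 4 pairs. Without any 1 of the Luc libraries the exact permutation p over libraries was 0.0571. The cFos shares rest on sums of 0.0838 to 0.291 FPKM, with Oas1g at the limit given above.

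Oas1b is the mouse flavivirus resistance gene, which carries a premature stop in most laboratory strains (chromosome 5, 121262644 to 121274169). GENCODE lists it as a polymorphic pseudogene. It stood at 0.301, 0.346, 0.319 and 0.438 FPKM in cFos 2, 4, 8 and 12, and at 9.86, 5.61, 2.37 and 2.93 FPKM in Luc 2, 4, 8 and 12. The cFos libraries were all within 1.46-fold of each other and below every Luc library, and its log2 fold change was -2.56 (SE 0.38, limma adjusted p = 0.00615). These are sums of 2 entries that differ by 3 bases in length, 1837 and 1834, of which RefSeq numbers the longer as non-coding and the shorter as coding. The longer one held 9.85, 5.60, 2.34 and 2.93 FPKM in Luc 2, 4, 8 and 12, nearly all of the sum, but 0.0521 and 0.0574 FPKM in cFos 4 and cFos 8, where the shorter one held 0.294 and 0.262. With entries this alike the split between them is uncertain, and the sum is the value to read.

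The larger synthetases Oas2 and Oas3, built from repeated synthetase domains, were the 2 lowest members in all 4 Luc libraries. Oas2 (chromosome 5, 121180342 to 121199857) stood at 0.00596, 0.0194, 0.0138 and 0.0312 FPKM in cFos 2, 4, 8 and 12, and at 3.14, 2.82, 0.0908 and 0.755 FPKM in Luc 2, 4, 8 and 12. With 2 libraries at 1 FPKM or more, Luc 2 and Luc 4, it was not part of the limma test. The groups did not overlap (two-sided exact permutation p = 0.0286 for libraries, the smallest possible, and 0.125 within clones). On a log scale Luc 8 lay nearer to the highest cFos library than to the next Luc library.

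Oas3 (chromosome 5, 121203107 to 121227668) stood at 0.000605, 0.0318, 0.00744 and 0.0203 FPKM in cFos 2, 4, 8 and 12. In Luc it was at 0.679, 1.91, 0.0184 and 0.473 FPKM in clones 2, 4, 8 and 12. Here Luc 8 lay below cFos 4 and cFos 12, so the groups overlapped (two-sided exact permutation p = 0.0857 for libraries and 0.125 within clones). At these levels, with the authors' lower limit at 0 in 3 cFos libraries and in 1 Luc library, a fall in clone 8 was not detectable.

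The OAS-like genes Oasl1 and Oasl2 carry ubiquitin-like domains and lie side by side elsewhere on chromosome 5. Mouse Oasl2 retains synthetase activity, while Oasl1 lacks it and is known for restraining translation of Irf7. Oasl2 (115346943 to 115362254) stood at 0.684, 2.09, 0.635 and 2.56 FPKM in cFos 2, 4, 8 and 12, and at 111, 70.2, 15.8 and 36.1 FPKM in Luc 2, 4, 8 and 12. It had the highest FPKM of the 8 members in Luc 2, Luc 4 and Luc 12, and in Luc 8 stood below Eif2ak2. The means were 1.49 ± 0.983 FPKM in cFos and 58.2 ± 41.6 in Luc (SD, n = 4), with a log2 difference of -4.69 (SE 0.59, limma adjusted p = 0.00339). Oasl2 passed the filter in 6 libraries, 2 of them cFos.

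Oasl1 (115373249 to 115387920) stood at 0.215, 0.343, 0.209 and 0.414 FPKM in cFos 2, 4, 8 and 12, and at 8.84, 6.79, 0.809 and 2.58 FPKM in Luc 2, 4, 8 and 12. With Luc 8 below 1 FPKM it missed the filter. The groups did not overlap (two-sided exact permutation p = 0.0286 for libraries and 0.125 within clones, the smallest possible). Under the filter on the mean, which it reached through Luc alone, its log2 fold change was -2.36 (limma adjusted p = 0.0487). With no filter it did not pass (limma adjusted p = 0.153).

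Eif2ak2, which encodes PKR (chromosome 17, 79251890 to 79281912), kept a clear level in both groups. It stood at 10.7, 11.7, 12.1 and 13.6 FPKM in cFos 2, 4, 8 and 12, and at 66.5, 42.7, 20.7 and 33.7 FPKM in Luc 2, 4, 8 and 12. The cFos libraries lay within 1.27-fold of each other, while the Luc libraries spread 3.20-fold and all lay above them. The means were 12.0 ± 1.19 FPKM in cFos and 40.9 ± 19.3 in Luc (SD, n = 4). The log2 fold change was -1.61 (SE 0.30, limma adjusted p = 0.0180), with a 95% interval of -2.29 to -0.93. This did not meet the intervals of Oas1a (-6.59 to -3.99), Oas1g (-5.39 to -2.81) or Oasl2 (-6.01 to -3.36). It met that of Oas1b (-3.41 to -1.71). For Oas1g and Oas1b this depends on the pseudocount. At a pseudocount of 1 the interval of Eif2ak2 (-2.24 to -0.90) met that of Oas1g (-4.42 to -2.07). At 0.1 the interval of Eif2ak2 (-2.33 to -0.95) did not meet that of Oas1b (-4.33 to -2.36). Those of Oas1a and Oasl2 stayed apart from it at both. Eif2ak2 was also the 1 tested member whose call was lost in some settings. Its limma adjusted p was 0.0652 without cFos 2, where 0.762% of all genes were called lower. It was 0.0562 without cFos 4, where 0.905% were, and 0.0903 with no filter on low genes.

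The order of the members differed between the viruses. In all 4 cFos libraries Eif2ak2 was the highest member by FPKM, followed by Oasl2, and it made up 89.2%, 78.9%, 89.6% and 79.3% of the summed FPKM of the 8 in clones 2, 4, 8 and 12. In Luc it made up 24.8%, 21.5%, 43.0% and 31.9%. The 7 OAS genes together came to 1.30, 3.12, 1.40 and 3.55 FPKM in cFos 2, 4, 8 and 12, and to 202, 156, 27.5 and 71.8 FPKM in Luc 2, 4, 8 and 12. In all 4 Luc libraries the upper places were held by Oasl2, Eif2ak2 and Oas1a, in an order that varied. In Luc 8 Eif2ak2 came first and Oasl2 next, as in all 4 cFos libraries. The 2 lowest were Oas2 and then Oas3 in all 4 Luc libraries. Neighbours in the order often lay within the spread between clones, as Eif2ak2 at 40.9 ± 19.3 and Oas1a at 32.5 ± 22.7 FPKM.

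The clones differed in size of the fall more than in its direction. The median of the 8 within-clone log2 differences was -3.70, -2.98, -1.35 and -1.81 for clones 2, 4, 8 and 12, against -0.06, -0.09, -0.02 and -0.02 over all tested genes. On this scale clone 8 had the smallest fall in 7 of the 8 members, all but Oasl2, at -3.84 in clone 8 and -3.58 in clone 12. By the deposited values Oas1b too fell least in clone 12, where cFos held 14.9% of the Luc level, against 13.5% in clone 8. The difference between clones was not tested, since each clone has 1 culture per virus.

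**Figure D2:**
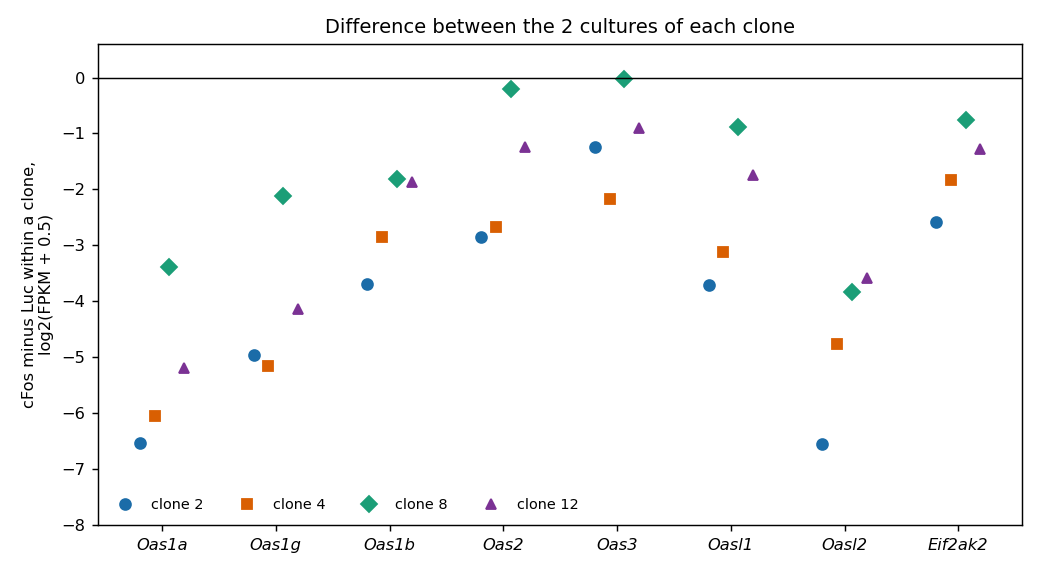
Difference between the cFos and the Luc culture of each clone in log2(FPKM + 0.5), with 1 point per clone for each member. All 32 points lie below 0, from -6.55 for Oasl2 in clone 2 to -0.03 for Oas3 in clone 8. At the levels of Oas3 in clone 8 a fall was not detectable.

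The Luc levels also varied by clone. Luc 8 was the lowest Luc library for all 8 members, Luc 12 the next lowest for all 8, and Luc 2 the highest for 6, with Luc 4 the highest for Oas1g and Oas3. The Luc libraries spread from 3.20-fold for Eif2ak2 to 104-fold for Oas3. In cFos no clone was lowest or highest for all 8 members. The lowest library was cFos 2 for Oas1b, Oas2, Oas3 and Eif2ak2, cFos 8 for Oasl1 and Oasl2, and cFos 12 for Oas1a and Oas1g. The highest was cFos 12 for Oas1b, Oas2, Oasl1, Oasl2 and Eif2ak2, cFos 4 for Oas1a and Oas3, and cFos 8 for Oas1g. Luc 8 was also the Luc library with the most Fos, at the 302 FPKM given above. The part of this in the members' levels was not tested.

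The other genes of the oligoadenylate pathway showed 1 call. Of 8 listed genes 4 were tested, of which 1 was lower, 0 were higher and 3 missed the threshold. Their median log2 fold change was -0.26, beside -0.06 over all tested genes, of which 2.62% were called lower. The gene that fell was Oas1c, a further Oas1 gene of the same cluster, at 0.293, 0.531, 0.651 and 0.341 FPKM in cFos 2, 4, 8 and 12 and at 2.46, 2.78, 1.71 and 1.47 FPKM in Luc 2, 4, 8 and 12. Its log2 fold change was -1.43 (limma adjusted p = 0.0118), and it too passed the filter through Luc alone. Oas1d, Oas1e, Oas1f and Oas1h were listed at 0 in all 4 cFos libraries and reached at most 0.105 FPKM in Luc.

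Abce1, a ribosome recycling factor, stood at 71.7 ± 13.1 FPKM in cFos and 70.7 ± 15.8 in Luc (SD, n = 4). Pde12, which breaks oligoadenylates down, stood at 5.16 ± 0.355 FPKM in cFos and 5.31 ± 0.912 in Luc (SD, n = 4).

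Around PKR, all 15 listed genes were tested, and 1 was lower, 0 were higher and 14 missed the threshold. Their median log2 fold change was -0.01, beside -0.06 over all tested genes, of which 2.62% were called lower and 2.92% higher. The gene that fell was Adar, which edits double-stranded RNA and so limits what PKR can bind. It stood at 4.13, 3.06, 4.51 and 6.02 FPKM in cFos 2, 4, 8 and 12, and at 17.5, 16.3, 8.02 and 15.1 FPKM in Luc 2, 4, 8 and 12. The groups did not overlap, and its log2 fold change was -1.55 (limma adjusted p = 0.0134, but 0.0517 without cFos 2 and 0.0725 with no filter).

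The other genes of this list include the substrate and the other kinases of eIF2α. Eif2s1, which encodes eIF2α, stood at 32.1 ± 6.65 FPKM in cFos and 32.0 ± 8.21 in Luc, a log2 difference of 0.01. The heme-regulated kinase Eif2ak1 differed by -0.09, the endoplasmic reticulum stress kinase Eif2ak3 by 0.46 and the amino acid sensor Eif2ak4 by -0.41, and none of them passed (limma adjusted p of 0.758, 0.159 and 0.163). The PKR activator Prkra stood at 20.7 ± 3.15 FPKM in cFos and 20.5 ± 2.10 in Luc (SD, n = 4 each). Ddit3, a stress gene downstream of eIF2α, stood at 50.6 ± 12.2 FPKM in cFos and 36.9 ± 15.7 in Luc (adjusted p = 0.415). Without Luc 8, Eif2ak3 passed as higher in cFos (log2 fold change 0.59, adjusted p = 0.0496).

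Of 10 genes upstream, from interferon beta to transcription factors, 9 were tested, and 3 were lower, 0 higher and 6 missed the threshold. The median log2 fold change was -0.28, beside -0.06 over all tested genes, of which 2.62% were called lower. Those that fell were Stat2 and Irf9, which encode factors that act on the response element, and Irf7, a regulator of interferon genes. Stat2 stood at 4.57 ± 0.905 FPKM in cFos and 33.1 ± 24.7 in Luc, and Irf9 at 7.24 ± 0.784 in cFos and 31.6 ± 11.3 in Luc (SD, n = 4 each). Their log2 fold changes were -2.46 and -1.99 (limma adjusted p of 0.0167 and 0.00284). Irf7 stood at 1.34 ± 0.292 FPKM in cFos and 47.9 ± 47.5 in Luc (SD, n = 4), and fell by 4.23 on the log2 scale (limma adjusted p = 0.00469). The call of Stat2 ended without cFos 2 (0.0629), without cFos 4 (0.0507) and with no filter (0.0919). With the clone as a block, Irf1, another interferon regulatory factor, also passed (-0.71, adjusted p = 0.0228).

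The receptor genes Ifnar1 and Ifnar2 differed by -0.28 and -0.11 on the log2 scale and did not pass (limma adjusted p of 0.356 and 0.727). The receptor kinases Jak1 and Tyk2 differed by -0.14 and -0.05 (0.860 and 0.913). Ifnb1, interferon beta, was listed at 0 in all 4 cFos libraries, at 0.644 FPKM in Luc 2, at 0.0436 in Luc 12 and at 0 in Luc 4 and Luc 8.

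**Figure D3:**
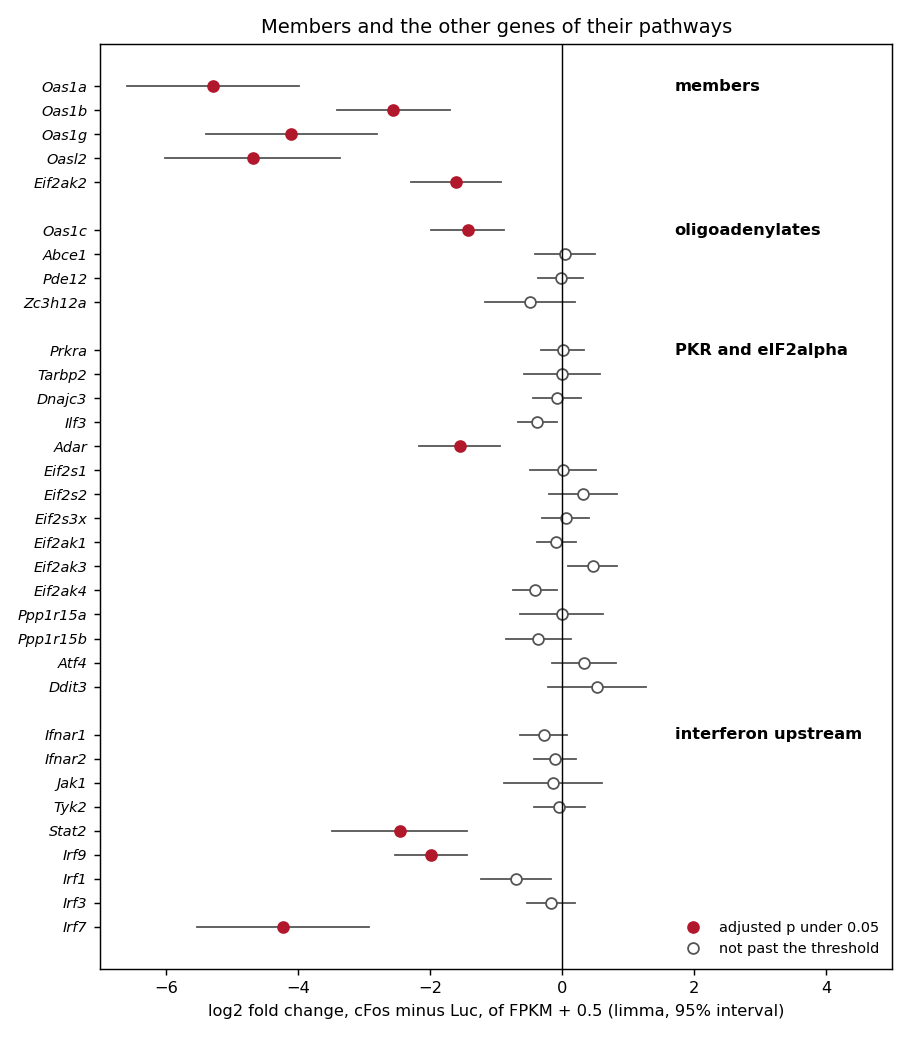
Log2 fold change, cFos minus Luc, of the tested members and of the tested genes of the 3 pathway lists, with 95% intervals from limma. Filled points passed the adjusted threshold. Besides the 5 members these are Oas1c, Adar, Stat2, Irf9 and Irf7, all lower in cFos.

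The genes most like the members over the 8 libraries were found by the Pearson correlation of each gene's log2 values with the mean standardized profile of the 5 tested members. Members, bare accessions and provisional symbols, such as those that start with Gm or end in Rik, were passed over. The 6 highest of the rest were Dhx58 (0.994), Irf7 (0.992), Bst2 (0.991), Xaf1 (0.991), Irf9 (0.990) and Rtp4 (0.990). Since the libraries fall into 2 groups, such values include the difference between the viruses, and they carry no test. Dhx58, a helicase that binds double-stranded RNA, stood at 1.22, 1.54, 1.44 and 1.73 FPKM in cFos 2, 4, 8 and 12. In Luc it was at 51.2, 26.1, 10.8 and 14.2 FPKM in clones 2, 4, 8 and 12, in the same clone order as Oas1a, Oasl2 and Eif2ak2.

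Whether the genes beside the members also moved was looked at within 250000 bases of the OAS cluster, of the Oasl pair and of Eif2ak2, by the mm9 positions of the tables. The window was set after the values were seen. Of 40 neighbouring genes 27 were tested, and 1 was called, beside 2.62% of all tested genes called lower and 2.92% called higher. With so few neighbours tested, counts this low are near those shares. None of the 6 tested neighbours of the OAS cluster and none of the 12 of the Oasl pair passed (limma adjusted p of at least 0.138 and 0.175), with log2 fold changes of -0.12 to 0.74 and -0.16 to 0.63.

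The call was Gm6548, which RefSeq lists as a transcribed pseudogene (chromosome 17, 79249845 to 79251884). It ends 5 bases before the lower end of Eif2ak2, the side of its 3′ end. It stood at 12.3, 14.0, 12.0 and 14.3 FPKM in cFos 2, 4, 8 and 12, and at 61.4, 45.3, 20.8 and 32.6 FPKM in Luc 2, 4, 8 and 12. In each library this was close to the level of Eif2ak2, and its log2 fold change was -1.47 (SE 0.29, limma adjusted p = 0.0217). Whether the counting used strand is not given in the sources used here, and whether reads of one were counted for the other was not tested.

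**Figure D4:**
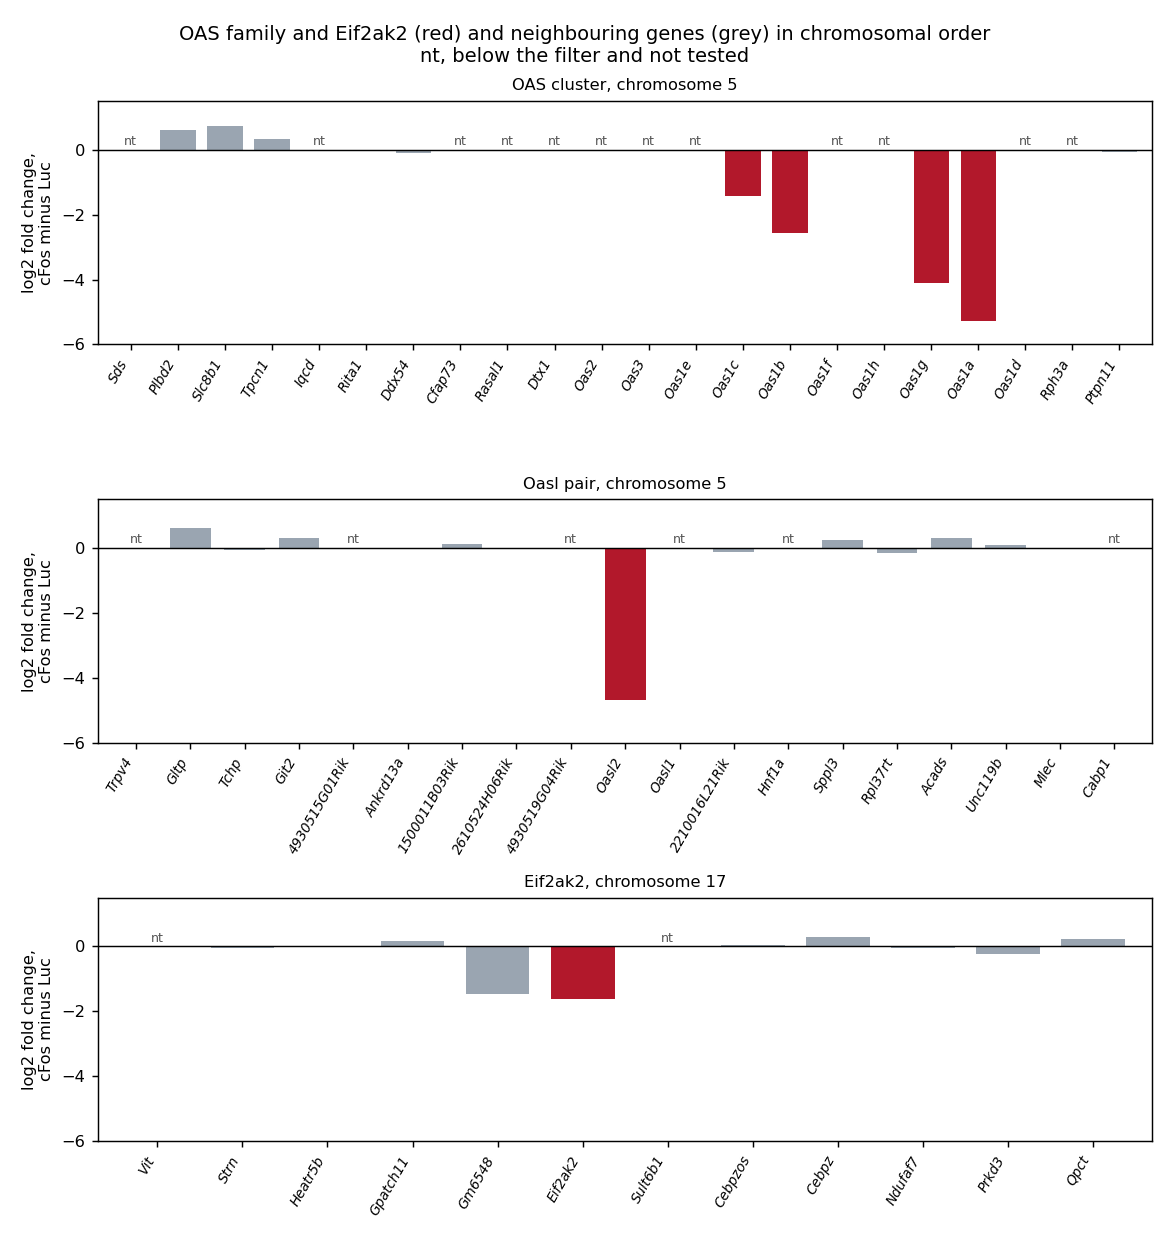
Log2 fold change, cFos minus Luc, of OAS genes and Eif2ak2 (red) and of their neighbours (grey), in order along the chromosome and not to distance, with nt for genes below the filter. The 1 neighbour that passed the threshold is Gm6548 (-1.47), next to Eif2ak2 (-1.61).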

How the data were processed

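Per the labels' protocols, RNA was extracted with a miniprep kit and sequenced from TruSeq libraries. The tools named are CASAVA 1.8.2, TopHat and Cufflinks and the build is mm9, per the submitters' processing notes. For other versions, settings and the annotation, nothing is stated in the labels or file headers. The authors deposited FPKM per RefSeq transcript with confidence limits, per the file headers, and the coverage of each transcript, a signal of mean depth per base. These are model estimates that split reads between alike transcripts, with no scaling between libraries recorded. The files give no counts, so no counting interval was computed. Coverage times length summed to 6.93 to 9.14 gigabases per library.

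Each table had 30769 entries, of which 30223 were named from an NCBI RefSeq table and 184 from GENCODE M21 metadata, and 362 kept their accession. FPKM was summed per symbol into 23503 genes, and 3 with a failed status were left out. The test was limma 3.58.1 (R 4.3.3, with a trend of variance on level) of log2(FPKM + 0.5) for genes that reached 1 FPKM in 4 or more libraries, two-sided, adjusted p under 0.05. It was tested on simulated data. Python 3.11.15 with Biopython 1.88 aligned sequences. The clone number marks the same line in both arms and pairs the libraries (deviations from the arm means correlated by 0.174, 0.593, 0.349 and 0.437 in clones 2, 4, 8 and 12), and the fit was repeated with a block for clone.

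Alternatives were pseudocounts of 0.1 and 1, no filter, a minimum of 5 FPKM, a filter on the mean, median scaling, no trend, the block, Oas1a and Oas1g summed, and each library left out. Named are all members, Fos, every called gene of the pathway lists with others of the list for their values. Also named are the 6 genes most like the members among those ranked. Gm6548 and the stromal genes Col1a1, Cxcl12 and Pdgfrb were named after their values were seen. Of the listed genes, 2 are not reported here and enter no list count. The members and lists were chosen with earlier results of these data known.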

Additional observations from a re-analysis of the deposited data

How the results depend on the processing

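Over all genes, the 326 higher and 293 lower in cFos became 164 and 83 with no filter on low genes, 503 and 478 with the clone as a block, and 150 to 319 and 85 to 295 when 1 library was left out, lowest without cFos 2 in both directions. The 5 members lower in cFos became 3 at a minimum of 5 FPKM, where 3 were tested, beside 2.68% of all genes tested there. With 1 library left out they became 4 to 5, beside 0.762% (without cFos 2) to 2.64% (without Luc 8) of all tested genes. The block, which pairs the libraries by clone, changed no call of a member (log2 fold change of Eif2ak2 -1.61, adjusted p = 0.0217). Eif2ak2 kept -1.61 but lost its call with no filter (0.0903), and lay between -1.89 and -1.34 with 1 library left out, not called without cFos 2 or cFos 4. With 1 library left out, Oas1a lay between -5.90 and -4.93 and Oas1b between -2.82 and -2.21. Oas1g then lay between -4.74 and -3.74 and Oasl2 between -5.19 and -4.27, and all of these stayed called. These fits and the block kept the genes of the main filter. Oas1a, Oas1b and Oas1g passed it through Luc alone, so their calls here are no support in themselves. Fos kept 3.06 with no filter (adjusted p = 0.0985) and lay between 2.74 and 3.70 with 1 library left out. In the oligoadenylate list the 1 fall became 0 at a minimum of 5 FPKM, where Oas1c was not tested. In the PKR list the 1 fall became 0 with no filter and 0 to 1 with 1 library left out, while 0 to 1 rose, Eif2ak3 without Luc 8. In the interferon list the 3 falls became 2 with no filter and 2 to 4 with 1 library left out. The difference in the share of Oas1a was 14.6 percentage points by coverage times length (exact permutation p = 0.0286) and 9.70 to 14.0 with 1 library left out, with exact permutation p = 0.0286 without any 1 cFos library and 0.0571, above the threshold, without any 1 Luc library. The cause was not tested. No result reversed. Members near 0 in cFos are limited by depth, and the size of their fall depends on the pseudocount: Oas1g was at -6.08 with 0.1 and -3.24 with 1.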
